A study of Homo sapiens with 2 samples.

Results

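BCAS4, KIAA0226L, KANK2, CYB5D2, CD99, DMWD, CETP, NKAIN4 and QPRT are 9 genes with more messenger RNA in Nalm-6 cells induced to express ETV6-RUNX1 than in Nalm-6 cells induced to express luciferase. They were taken by symbol from 32738 genes because their ratio between these same libraries was at least 1.5-fold. Their ratios, and every other comparison of the libraries on these genes, are therefore descriptions and not tests. Nalm-6 is an established human pre-B acute lymphoblastic leukemia line. The cells carried an inducible Tet-On construct, either the ETV6-RUNX1 fusion (also called TEL-AML1) or luciferase (LUC control), and both cultures received 500 ng/ml doxycycline for 24 h. Each construct was profiled in 1 droplet library of polyadenylated RNA counted as unique molecular identifiers (UMIs), so no difference has a replicate check and no test between libraries was made.

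Kept cells had at least 1000 genes and at most 10% of UMIs from mitochondrial genes, which left 2267 ETV6-RUNX1 cells (median 19219 UMIs) and 1870 LUC cells (median 22535.5 UMIs). The libraries shared 16 cell barcodes, and with those barcodes left out each of the 9 genes was still at least 1.5-fold higher. All 10 B-cell precursor markers examined, among them CD79A, PAX5 and EBF1, were above 10 CPM (the UMIs of a gene in all kept cells, scaled to a common library total). None of the markers of T and NK, myeloid, erythroid, stem, plasma or epithelial cells was, and the highest sum of such a list was that of plasma cells, 9.49 CPM in the ETV6-RUNX1 library and 6.78 CPM in the LUC library. All 5 erythroid and megakaryocyte markers were at 0 UMIs in both libraries.

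ETV6-RUNX1 joins the amino-terminal part of the repressor ETV6 to almost the whole of RUNX1, including the Runt domain that binds DNA. The fusion is a common early lesion of childhood B-cell precursor leukemia and has been described chiefly as a repressor at genes that RUNX1 would activate. The 9 genes belong to no single pathway. CD99 is a surface glycoprotein of leukocytes, and NKAIN4 is a membrane protein of a family that interacts with the sodium pump. KANK2 is a scaffold that couples integrin adhesions to the cell cortex. QPRT converts quinolinate to a precursor of NAD, CETP moves cholesteryl esters between lipoproteins, and CYB5D2 (neuferricin) is a heme-binding protein. KIAA0226L (now RUBCNL, or Pacer) promotes autophagosome maturation, BCAS4 is related to a subunit of the vesicle complex BLOC-1, and DMWD is a WD-repeat protein encoded beside the myotonic dystrophy kinase gene. They lie on chromosomes 13 (KIAA0226L), 16 (CETP and QPRT), 17 (CYB5D2), 19 (KANK2 and DMWD), 20 (BCAS4 and NKAIN4) and X (CD99).

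The 250 bases before the annotated start of 8 of the 9 genes were read from RefSeq (GRCh38.p14). They were searched on both strands for TGTGGT (reverse ACCACA), a core RUNX word, and for CCGGAA (reverse TTCCGG), a core ETS word. The RUNX word stood before 2 genes, BCAS4 and DMWD. By window it was in 2 of the 12 searched for these genes and in 11.0% of 35116 promoter windows of the same length. The ETS word stood before 2 genes, CYB5D2 and CETP, in 3 of the 12 windows and in 14.5% of all windows. The windows of KIAA0226L, KANK2, CD99 and QPRT held neither word. BCAS4, KIAA0226L, CYB5D2 and QPRT each had another annotated start, whose window was searched as well, and the other CYB5D2 window, which overlaps the one given here, held the same ETS word. One window for each gene with a match is given 5′ to 3′ on the gene's strand, with the matching word in capitals, to show where in the promoter these letters occur. A match describes the sequence and does not show binding.
BCAS4 (chr20:50794644-50794893, plus strand): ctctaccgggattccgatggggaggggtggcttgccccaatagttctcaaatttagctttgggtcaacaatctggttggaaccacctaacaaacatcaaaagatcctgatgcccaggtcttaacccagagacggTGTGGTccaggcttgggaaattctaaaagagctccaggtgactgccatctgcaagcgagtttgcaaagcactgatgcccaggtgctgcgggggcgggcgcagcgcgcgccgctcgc
DMWD (chr19:45792846-45793095, minus strand): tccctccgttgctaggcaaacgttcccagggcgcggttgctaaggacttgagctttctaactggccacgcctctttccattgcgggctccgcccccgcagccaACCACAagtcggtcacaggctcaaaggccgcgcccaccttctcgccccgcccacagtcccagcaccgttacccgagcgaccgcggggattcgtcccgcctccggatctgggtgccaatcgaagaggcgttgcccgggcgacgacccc
CETP (chr16:56961700-56961949, plus strand): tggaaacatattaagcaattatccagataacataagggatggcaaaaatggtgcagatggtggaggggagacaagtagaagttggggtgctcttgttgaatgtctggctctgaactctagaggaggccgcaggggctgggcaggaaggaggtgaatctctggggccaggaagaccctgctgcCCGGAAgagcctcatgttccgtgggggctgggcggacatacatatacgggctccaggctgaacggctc
CYB5D2 (chr17:4142918-4143167, plus strand): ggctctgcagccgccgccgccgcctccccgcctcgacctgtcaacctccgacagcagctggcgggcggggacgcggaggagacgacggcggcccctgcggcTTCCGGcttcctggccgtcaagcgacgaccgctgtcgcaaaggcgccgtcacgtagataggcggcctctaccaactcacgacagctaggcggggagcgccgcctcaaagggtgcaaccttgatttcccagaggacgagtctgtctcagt
Counted from the start, the word began at -116 in BCAS4, -147 in DMWD, -68 in CETP and -149 in CYB5D2.

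Together the 9 genes stood at 176 CPM over kept ETV6-RUNX1 cells and 105 CPM over kept LUC cells (7753 and 4472 UMIs). All 9 reached 10 CPM in at least 1 library, and KIAA0226L, CYB5D2, CD99, DMWD and CETP did so in the ETV6-RUNX1 library alone. Of the 5954 genes that reached 10 CPM, 0.185% were at least 1.5-fold higher with ETV6-RUNX1, which is the set the 9 genes were taken from. The median log2 ratio of ETV6-RUNX1 over LUC was 0.78 for the 9 genes and -0.04 for all 5954. QPRT lay just inside the size limit with a log2 ratio of 0.60, and EMP2 (0.58) and WAPAL (0.56) lay just outside it. Intervals given here are exact 95% intervals and cover counting error only.

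Among the surface and membrane proteins, CD99 was at 11.9 CPM (10.9 to 13.0) in ETV6-RUNX1 cells and 6.95 CPM (6.18 to 7.78) in LUC cells, a log2 ratio of 0.78 (0.57 to 0.99). NKAIN4 was at 32.6 CPM (30.9 to 34.3) in ETV6-RUNX1 cells and 20.7 CPM (19.3 to 22.1) in LUC cells, a log2 ratio of 0.66 (0.54 to 0.78). The adhesion scaffold KANK2 was at 23.5 CPM (22.1 to 25.0) in ETV6-RUNX1 cells and 13.4 CPM (12.3 to 14.5) in LUC cells, a log2 ratio of 0.81 (0.66 to 0.96). The genes were chosen by ratio on these same cells, so whether the intervals of the libraries are apart is not read as a result.

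Of the metabolic genes, QPRT was at 29.3 CPM (27.7 to 31.0) in ETV6-RUNX1 cells and 19.4 CPM (18.1 to 20.7) in LUC cells. CETP was at 11.5 CPM (10.6 to 12.6) in ETV6-RUNX1 cells and 7.20 CPM (6.42 to 8.05) in LUC cells. CYB5D2 was at 11.4 CPM (10.4 to 12.5) in ETV6-RUNX1 cells and 6.52 CPM (5.78 to 7.34) in LUC cells. Their log2 ratios were 0.60 (0.47 to 0.73), 0.68 (0.47 to 0.89) and 0.81 (0.59 to 1.02).

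Of the vesicle and autophagy genes, BCAS4 was at 29.1 CPM (27.5 to 30.7) in ETV6-RUNX1 cells and 14.8 CPM (13.6 to 16.0) in LUC cells, a log2 ratio of 0.98 (0.84 to 1.12). KIAA0226L was at 16.5 CPM (15.3 to 17.7) in ETV6-RUNX1 cells and 9.21 CPM (8.33 to 10.2) in LUC cells, a log2 ratio of 0.84 (0.66 to 1.02). The WD-repeat gene DMWD was at 10.5 CPM (9.60 to 11.5) in ETV6-RUNX1 cells and 6.50 CPM (5.76 to 7.31) in LUC cells, a log2 ratio of 0.70 (0.48 to 0.92). None of the 9 reached 2-fold on library totals, while BCAS4 passed it under the other 3 scalings (log2 ratios of 1.02), with cells weighted equally (1.02) and in cells thinned to 8700 UMIs (1.09), and CETP in cells thinned to 5000 UMIs (1.02). For comparison, ETV6 was at 10.2 CPM in ETV6-RUNX1 cells and 6.95 CPM in LUC cells (log2 ratio 0.55), and RUNX1 was at 33.8 and 34.0 CPM (-0.01). The labels do not give the 3′ end of the construct, so which of its transcripts these counts hold cannot be told.

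At counts this low, a difference in the mean shows mainly as more cells with a transcript, and it did so here. To compare cells at equal depth, each was thinned at random to 8700 UMIs, which left 2043 ETV6-RUNX1 cells and 1786 LUC cells and dropped 224 and 84 shallower ones. CD99 had a UMI in 9.30% of thinned ETV6-RUNX1 cells (8.08 to 10.6) and 5.94% of thinned LUC cells (4.88 to 7.13). NKAIN4 had one in 21.3% of ETV6-RUNX1 cells (19.6 to 23.2) and 14.6% of LUC cells (13.0 to 16.3). KANK2 had one in 17.6% of ETV6-RUNX1 cells (15.9 to 19.3) and 11.1% of LUC cells (9.67 to 12.6). Fewer than 1 thinned cell in 4 was positive for each of these genes in either library.

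QPRT was detected in 22.1% of ETV6-RUNX1 cells (20.3 to 23.9) and 15.7% of LUC cells (14.0 to 17.4). CETP was detected in 9.20% of ETV6-RUNX1 cells (7.98 to 10.5) and 6.05% of LUC cells (4.99 to 7.25). CYB5D2 was detected in 7.68% of ETV6-RUNX1 cells (6.57 to 8.93) and 4.87% of LUC cells (3.92 to 5.97). BCAS4 was found in 21.3% of ETV6-RUNX1 cells (19.6 to 23.2) and 11.0% of LUC cells (9.61 to 12.6), the largest ratio of shares of the 9 at 1.93. KIAA0226L was found in 12.7% of ETV6-RUNX1 cells (11.3 to 14.2) and 7.33% of LUC cells (6.17 to 8.64). DMWD was found in 7.49% of ETV6-RUNX1 cells (6.38 to 8.72) and 5.54% of LUC cells (4.53 to 6.71), with overlapping intervals.

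Without thinning, the lowest and highest shares among the 9 genes were 14.2% and 39.3% in ETV6-RUNX1 cells and 11.2% and 32.6% in LUC cells. Neither library held a cell type known to lack these genes, so the share that free RNA alone would give was not measured. Barcodes outside the kept set had a median of 1001.5 UMIs in the ETV6-RUNX1 library and 1067 UMIs in the LUC library. Of these, 2 to 15 of 236 barcodes and 1 to 17 of 333 barcodes had a UMI of a given gene of the 9.

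Most positive thinned cells held a single UMI. BCAS4 averaged 1.22 UMIs per positive ETV6-RUNX1 cell and 1.10 UMIs per positive LUC cell, a ratio of 1.10 beside the 1.93-fold ratio of its shares. CYB5D2 had the largest such ratio, with 1.34 UMIs per positive ETV6-RUNX1 cell and 1.11 UMIs per positive LUC cell. At least 2 CYB5D2 UMIs were found in 42 ETV6-RUNX1 cells and 8 LUC cells. On the log2 scale the share of positive cells made up 70.9% (CYB5D2) to 96.6% (NKAIN4) of the ratio of mean UMIs in 8 of the 9 genes. For DMWD it made up 105%, since positive ETV6-RUNX1 cells held slightly fewer UMIs (1.05) than positive LUC cells (1.06). At counts this low a shift of the mean in all cells also moves the share of positive cells, so this split cannot tell a gain in some cells from a gain in all.

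Spread between cells was measured within each library as the variance over the mean of UMIs in thinned cells, which is 1 where counts vary by sampling alone. This measure was not used to choose the genes. It is not independent of the choice in ETV6-RUNX1 cells, since a few cells with many UMIs raise both the ratio and the variance. KIAA0226L, CYB5D2, CD99, DMWD and CETP also passed the floor of 10 CPM only through that library. NKAIN4 had a variance over mean of 1.35 in ETV6-RUNX1 cells and 1.40 in LUC cells, while the 200 measured genes nearest in mean had medians of 1.04 and 1.02. CYB5D2 had 1.53 in ETV6-RUNX1 cells and 1.19 in LUC cells. By variance over mean these genes stood highest of the 9 in both libraries. CD99 had 1.26 in ETV6-RUNX1 cells and 1.08 in LUC cells, KIAA0226L 1.16 and 1.04, and KANK2 1.16 and 1.07. BCAS4 had 1.15 in ETV6-RUNX1 cells and 1.08 in LUC cells, QPRT 1.15 and 1.10, and CETP 1.09 and 1.06. DMWD, at 1.01 in ETV6-RUNX1 cells and 1.06 in LUC cells, lay near the value for sampling alone.

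In ETV6-RUNX1 cells the variance over mean of CYB5D2 and of CD99 exceeded that of all 200 genes nearest in mean, and that of NKAIN4 exceeded 98.5% of them. KIAA0226L and KANK2 exceeded at least 97.0%, BCAS4 and QPRT 93.5%, CETP 89.5% and DMWD 48.5% of their 200 genes. For CYB5D2, CD99, DMWD and CETP in LUC cells all 200 genes lay above the member in mean, so no rank is given there. Of the other 5 genes in LUC cells, NKAIN4 exceeded all 200 genes nearest in mean, QPRT 92.5%, BCAS4 91.0%, KANK2 88.0% and KIAA0226L 76.0% of them. A value of at least 1.2 was reached by 3 of the 9 genes in ETV6-RUNX1 cells, where 10.2% of all measured genes reached it, and by 1 of 9 (NKAIN4) in LUC cells, where 8.50% did. The median was 1.16 in ETV6-RUNX1 cells and 1.08 in LUC cells for the 9 genes, and 1.04 in both for all measured genes. At a given relative spread, variance over mean rises with the mean, and the 9 genes had higher means in ETV6-RUNX1 cells. Its excess over 1, divided by the mean, was higher in ETV6-RUNX1 cells for KIAA0226L, KANK2, CYB5D2, CD99 and QPRT. That value was lower in ETV6-RUNX1 cells for BCAS4, DMWD, CETP and NKAIN4, so the libraries did not differ in 1 direction. Measured this way, CD99 (2.34) stood above NKAIN4 (1.24) in ETV6-RUNX1 cells.

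Cells with many UMIs were examined for CYB5D2 and NKAIN4. Before thinning, the highest cell held 12 of the 502 CYB5D2 UMIs in the ETV6-RUNX1 library and 18 of the 279 in the LUC library. Cells with 5 or more UMIs held 14.7% of CYB5D2 UMIs in ETV6-RUNX1 cells (11 cells) and 10.4% in LUC cells (3 cells). For NKAIN4 such cells held 13.5% of UMIs in ETV6-RUNX1 cells (33 cells) and 10.1% in LUC cells (16 cells). With them left out, the variance over mean of CYB5D2 was 1.35 in ETV6-RUNX1 cells and 1.08 in LUC cells, and that of NKAIN4 was 1.19 in ETV6-RUNX1 cells and 1.296 in LUC cells. The cut of 5 UMIs depends on how abundant a gene is. The 23 ETV6-RUNX1 cells and 19 LUC cells with the most UMIs of a gene held 23.1% and 25.8% of CYB5D2 UMIs, 14.1% and 16.5% of CD99 UMIs and 10.0% and 11.4% of NKAIN4 UMIs, so the share of NKAIN4 was the lowest of these 3.

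From cell to cell the 9 genes varied almost independently of each other. Over thinned cells (log-transformed UMIs), the 36 pairs had a median Pearson correlation of 0.013 in ETV6-RUNX1 cells, with extremes of -0.05 and 0.07, and a median of 0.0016 in LUC cells, with extremes of -0.04 and 0.05. All 17722081 pairs of measured genes had medians of 0.0021 in ETV6-RUNX1 cells and 0.0017 in LUC cells. These values describe cells of 1 library each, and counts this sparse hold correlations near 0. In ETV6-RUNX1 cells 3 pairs lay above the range that holds 95% of all pairs (upper end 0.054). These were KIAA0226L with CD99 (0.074 in ETV6-RUNX1 cells and 0.018 in LUC cells), BCAS4 with CETP (0.068 and 0.0017) and CD99 with QPRT (0.058 and 0.034), and in LUC cells 0 pairs did.

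KIAA0226L and CD99 occurred together in 36 ETV6-RUNX1 cells, where independence would give 24.1, and in 10 LUC cells, where it would give 7.77. CYB5D2 and CETP went the other way in ETV6-RUNX1 cells, with 7 cells found and 14.4 under independence. Over all pairs, the cells with both genes summed to 1570 in the ETV6-RUNX1 library against 1472 under independence, and to 542 in the LUC library against 523.

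A thinned cell held a UMI of 1.29 of the 9 genes on average among ETV6-RUNX1 cells, and of 0.821 among LUC cells. None of the 9 was detected in 25.7% of ETV6-RUNX1 cells (23.8 to 27.7; independence would give 24.4%) and in 42.3% of LUC cells (40.0 to 44.6; independence would give 41.9%). At least 4 of the 9 were detected in 3.43% of ETV6-RUNX1 cells (2.68 to 4.31; 2.66% under independence) and in 0.448% of LUC cells (0.194 to 0.881; 0.540% under independence). Cells with many of the genes were thus slightly more frequent than under independence in the ETV6-RUNX1 library, and its highest cells held 6 of the 9 genes (3 cells). This excess was not recomputed within a cell-cycle phase. The median pair correlation within cells called S phase (calls described below) was -0.0049 in ETV6-RUNX1 cells, where it was 0.013 over all thinned cells.

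The measured genes that followed each of the 9 most closely in ETV6-RUNX1 cells were also weakly correlated with it. For NKAIN4 the 3 highest were CLEC11A (0.13 in ETV6-RUNX1 cells and 0.10 in LUC cells), VPREB1 (0.12 and 0.12) and IGLL1 (0.11 and 0.11). VPREB1 and IGLL1 encode the surrogate light chain of the pre-B cell receptor. BCAS4 with ATP5G3 (0.11 in ETV6-RUNX1 cells and 0.08 in LUC cells) and CD99 with MYL12B (0.10 and 0.08) were high in both libraries as well. Other leading pairs were not: KANK2 with LITAF had 0.11 in ETV6-RUNX1 cells and -0.01 in LUC cells, and KIAA0226L with GLG1 had 0.11 and 0.02. For CYB5D2 the highest was CREBZF (0.08 in ETV6-RUNX1 cells and -0.005 in LUC cells) and for DMWD NME7 (0.09 and -0.025). For CETP it was RPS27L (0.10 in ETV6-RUNX1 cells and 0.02 in LUC cells) and for QPRT TMSB4X (0.11 and 0.04). Lower in the ranking, QPRT with CD79A had 0.10 in ETV6-RUNX1 cells and 0.08 in LUC cells, and CETP with FDXR had 0.08 and 0.06. These are the highest correlations among all measured genes, so the LUC values are the ones not chosen by the ranking.

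Dependence on the cell cycle was read within each library from cells called G1, S or G2/M by lists of S-phase and G2/M genes, which hold none of the 9. The calls gave 271 G1, 806 S and 966 G2/M cells in the ETV6-RUNX1 library and 194 G1, 747 S and 845 G2/M cells in the LUC library. CETP had the widest range over phases of the 9 in ETV6-RUNX1 cells. It was at 23.1 CPM in G1, 12.0 CPM in S and 8.79 CPM in G2/M in ETV6-RUNX1 cells, a log2 ratio of highest to lowest of 1.40 (1.04 to 1.75). In LUC cells it was at 9.81 CPM in G1, 6.23 CPM in S and 7.59 CPM in G2/M, with G1 again highest (0.65, 0.06 to 1.22), a range below those of KIAA0226L (0.78) and BCAS4 (0.74).

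CD99, KIAA0226L and QPRT were also highest in G1 in both libraries. CD99 was at 17.9, 10.8 and 10.2 CPM in G1, S and G2/M of ETV6-RUNX1 cells and at 7.63, 6.42 and 6.92 CPM in LUC cells, where its intervals overlapped. KIAA0226L was at 24.7, 16.5 and 14.6 CPM in ETV6-RUNX1 cells and at 14.7, 8.64 and 8.58 CPM in LUC cells. QPRT was at 38.2, 25.6 and 29.9 CPM in ETV6-RUNX1 cells and at 23.7, 18.7 and 19.0 CPM in LUC cells, where its intervals overlapped. BCAS4 was lowest in G2/M in both. It had 36.7, 36.7 and 22.2 CPM in G1, S and G2/M of ETV6-RUNX1 cells and 21.0, 16.4 and 12.6 CPM in LUC cells.

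NKAIN4 ran the other way and was highest in G2/M in both libraries. It had 23.3, 25.2 and 38.8 CPM in G1, S and G2/M of ETV6-RUNX1 cells and 16.3, 17.6 and 23.7 CPM in LUC cells. CYB5D2 was at 10.9, 14.1 and 9.92 CPM in ETV6-RUNX1 cells and at 6.54, 5.99 and 6.92 CPM in LUC cells, so that S was highest in ETV6-RUNX1 cells and lowest in LUC cells, where its intervals overlapped. KANK2 and DMWD did not differ between phases beyond counting error in either library. KANK2 had 23.3, 23.7 and 22.7 CPM in ETV6-RUNX1 cells and 13.9, 14.7 and 12.4 CPM in LUC cells. DMWD had 10.7, 11.0 and 10.4 CPM in ETV6-RUNX1 cells and 5.45, 5.74 and 7.10 CPM in LUC cells.

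The highest phase was at least 1.5-fold above the lowest for 5 of the 9 genes in ETV6-RUNX1 cells, where 14.0% of all measured genes reached that size, and for 3 of 9 in LUC cells, where 13.1% did. With phases called in each library alone it was 3 of 9 in ETV6-RUNX1 cells (KIAA0226L, CD99 and CETP) and 3 of 9 in LUC cells, and with phases called on unthinned cells 7 of 9 in ETV6-RUNX1 cells and 4 of 9 in LUC cells. The median log2 range over phases was 0.72 in ETV6-RUNX1 cells and 0.38 in LUC cells for the 9 genes, and 0.26 in both for all measured genes. Calling phases in each library alone put 20.4% of ETV6-RUNX1 cells in S in place of 39.5%, and the medians of the 9 genes were then 0.54 in ETV6-RUNX1 cells and 0.53 in LUC cells, so the difference between the libraries in this range depends on the calls. The range of CYB5D2 in ETV6-RUNX1 cells was 0.23 in place of 0.51. Counting error widens a range over phases in genes with few UMIs, and the background of all measured genes is not matched on level. The median level of the 9 genes was 16.5 CPM in ETV6-RUNX1 cells and 9.21 CPM in LUC cells. For all measured genes it was 28.9 CPM in ETV6-RUNX1 cells and 29.7 CPM in LUC cells. Against the G2/M score itself, BCAS4 had the lowest correlation of the 9 (-0.13 in ETV6-RUNX1 cells and -0.08 in LUC cells) and NKAIN4 the highest (0.10 and 0.07).

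The difference between the libraries had the same sign in each called phase. In G1 cells the log2 ratio was above 0 for all 9 genes (median 0.75), and 8 of 9 were at least 1.5-fold higher with ETV6-RUNX1, where 1.63% of all measured genes were. In S cells the median was 0.93 with 7 of 9 at that size (0.386% of all measured genes), and in G2/M cells 0.65 with 5 of 9 (0.252%). The genes were chosen on these cells, so nothing is read from these counts. CETP varied most between phases, with log2 ratios of 1.24 (0.68 to 1.83) in G1, 0.94 in S and 0.21 (-0.09 to 0.52) in G2/M. CYB5D2 had 1.24 (0.89 to 1.60) in S and 0.52 (0.22 to 0.83) in G2/M. KANK2 was nearly level at 0.75, 0.69 and 0.88. Differences of the ratio between phases were not tested. The ratios within phases were computed only with phases called on both libraries together. Calls in each library alone put 66.8% of ETV6-RUNX1 cells in G2/M in place of 47.3%.

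IGLL1, lower in the ETV6-RUNX1 library (1126 CPM) than in the LUC library (1861 CPM), had no UMI in 208 thinned ETV6-RUNX1 cells and at least 1 in the other 1835. KIAA0226L was at 27.1 CPM in the cells without and 15.6 CPM in the cells with an IGLL1 UMI (log2 ratio 0.80, 0.32 to 1.24). CYB5D2 (0.71, 0.13 to 1.25), CETP (0.71, 0.11 to 1.26), CD99 (0.66, 0.09 to 1.19) and KANK2 (0.51, 0.09 to 0.91) were likewise higher in the cells without. The intervals for QPRT (0.20), BCAS4 (0.06) and DMWD (-0.03) held 0. NKAIN4 was lower, at 20.4 CPM in the cells without and 33.9 CPM in the cells with an IGLL1 UMI (-0.73, -1.25 to -0.25). The split was not made for all measured genes, so it is not known whether these values are particular to the 9 genes. Only 23 LUC cells had no IGLL1 UMI, too few for values by gene. Cells with an ETV6 UMI and cells without one held the 9 genes at 186 and 178 CPM in the ETV6-RUNX1 library (161 and 1882 cells) and at 109 and 107 CPM in the LUC library (112 and 1674 cells).

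Genes related to the 9 by pathway and at 10 CPM or more were compared between the libraries. Of the other measured genes of NAD synthesis (5), cholesterol transport (6), the sodium pump (4), the membrane-associated progesterone receptor family of CYB5D2 (3), BLOC-1 (6), the Beclin 1 complex (3) and the deubiquitinases that bind WD40 proteins (2), 0 were higher by that size and 0 lower, where 0.185% of all measured genes were higher and 0.655% lower. With so few genes, 0 is near what these shares would give, so nothing is read from it. NAPRT1, which starts NAD synthesis from nicotinic acid, had a log2 ratio of -0.14 (-0.24 to -0.04). NADSYN1, which completes that route and the QPRT route, was at 20.6 CPM in ETV6-RUNX1 cells and 20.7 CPM in LUC cells. In the cholesterol transport list, MYLIP, which encodes a ubiquitin ligase, had a log2 ratio of -0.22 (-0.42 to -0.02), and PLTP, a phospholipid transfer protein related to CETP, had one of 0.13 (-0.06 to 0.33). The CYB5D2 relatives PGRMC1 (-0.22) and PGRMC2 (-0.18) and the BLOC-1 gene DTNBP1 (-0.15) were slightly lower, and BECN1 (0.12, 0.01 to 0.23) slightly higher. Other genes of the KANK, CD99 and NKAIN families were below 10 CPM in both libraries, and KANK4, XG, NKAIN1 and NKAIN2 had 0 UMIs.

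Of the nearest measured genes on either side of the 9, 18 in all by GENCODE gene order, 0 were 1.5-fold higher and 0 lower. Of all measured genes 0.185% were higher and 0.655% lower, so 0 among so few genes is near the background. The median log2 ratio of the 18 genes was 0.01, and 10 of 18 lay above 0, where 36.2% of all measured genes did. The highest was PTPN1 near BCAS4 (0.21, 0.10 to 0.31). The lowest was SPN, which encodes the surface sialoglycoprotein CD43 and lies near QPRT, at 37.6 CPM in ETV6-RUNX1 cells and 50.5 CPM in LUC cells (-0.42, -0.52 to -0.33). CYB5D2 overlaps ANKFY1 on the opposite strand, and ANKFY1 was at 9.24 CPM in ETV6-RUNX1 cells and 10.1 CPM in LUC cells (-0.13, -0.32 to 0.07). CYB5D2 and DMWD each also overlap another gene on the same strand. The one at CYB5D2 had 0 UMIs in ETV6-RUNX1 cells and 1 in LUC cells, and the one at DMWD had 0 in both. The sources used here do not state how reads in these overlaps were assigned, so the CYB5D2 and DMWD counts are uncertain to that extent.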

How the data were processed

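Single-cell RNA of Nalm-6 cells was measured in 1 library per construct. The authors deposited UMI counts per gene and barcode with no normalization. Cell Ranger 3.0.2 and build hg19 are named in the submitters' processing notes. The 9 genes and the lists of related genes were chosen with earlier results of these data known. The other 2 genes past the same size, and some genes of the lists, are not reported here.

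Doublets were left in. Kept cells held 43941536 UMIs (ETV6-RUNX1) and 42762188 UMIs (LUC). UMIs were summed per library and divided by the library total (CPM), and genes that reached 10 CPM in either library are called measured. Ratios and levels have exact Poisson 95% intervals and shares exact (Clopper-Pearson) 95% intervals, which cover counting error only. Thinning was a single seeded random draw without replacement. Phases were called with scanpy 1.11.5 on thinned cells of both libraries together. GENCODE release 29 gave gene order and chromosomes. Named genes were the 9, ETV6, RUNX1, IGLL1, up to 5 measured genes per list by size of ratio, the 3 most correlated genes of each of the 9, and their nearest measured neighbours.

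Alternatives were TMM (edgeR 4.0.16) and median-of-ratios scaling, totals without ribosomal protein and mitochondrial genes, equal weight per cell, other cell filters, thinning to 5000 UMIs, Scrublet calls left out, matched phases and other floors and sizes. On data simulated for ETV6-RUNX1 over LUC, 1.5-fold was reached by 100% of 50 genes made 2-fold higher, 52% of 50 made 1.5-fold higher and 0% of 5554 unchanged genes. The intervals covered the true ratio in 95.1% of 5754 genes with Poisson counts, but in 79.0% of 200 genes with extra spread between cells, so those of uneven genes are too narrow.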

Additional observations from a re-analysis of the deposited data

Results flagged for a closer look

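KANK2 gave a signal in barcodes outside the kept set, which are used only where all barcodes are kept as an alternative. Of 236 such barcodes in the ETV6-RUNX1 library, 15 had a KANK2 UMI, or 6.36% (3.60 to 10.3), and of 333 in the LUC library 5 had one (0.489 to 3.47%). The median share of mitochondrial UMIs in these barcodes was 79.5% in the ETV6-RUNX1 library and 88.5% in the LUC library. Scaled to CPM of non-mitochondrial UMIs, the 9 genes together stood at 303 in the ETV6-RUNX1 barcodes and 197 in the LUC barcodes outside the kept set (61 and 59 UMIs), and at 185 in kept ETV6-RUNX1 cells and 109 in kept LUC cells. The part of free RNA or damaged cells in this was not tested.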

How the results depend on the processing

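No paired analysis was possible because each group holds 1 library and the results come from no test. The count of the 9 genes at 1.5-fold was 8 with cells weighted equally or thinned to 5000 UMIs (QPRT short of it), 6 in cells thinned to 8700 UMIs (DMWD at 0.41, NKAIN4 at 0.57 and QPRT at 0.58 on the log2 scale), 0 at a size of 2-fold, and 9 under the other 10 settings run. All measured genes at 1.5-fold numbered 11, against 18 under each of the 3 other scalings and with cells weighted equally, 21 and 37 in cells thinned to 8700 and 5000 UMIs, 139 at a floor of 1 CPM, 61 at 1.3-fold and 0 at 2-fold. The scalings moved log2 ratios up by 0.04 to 0.05. Of 99 recomputed log2 ratios of the 9 genes, 3 left the main counting interval (DMWD at 0.41 thinned to 8700 UMIs, and CETP at 1.02 thinned to 5000 UMIs and 0.89 with phases matched) and 0 changed sign. The median share of cells with a UMI was 24.5% in ETV6-RUNX1 cells and 17.7% in LUC cells without thinning, and 8.20% and 4.67% at 5000 UMIs, as these shares follow depth by construction. The median variance over mean of the 9 genes at 5000 UMIs was 1.09 in ETV6-RUNX1 cells and 1.06 in LUC cells. CD99 and KIAA0226L were then higher in LUC cells. With phases called per library the median range over phases was 0.54 in ETV6-RUNX1 cells and 0.53 in LUC cells; the cause was not tested. Leaving out shared barcodes, calling phases per library and leaving out cells with 5 or more UMIs were chosen after seeing the data. Depth limits the low genes: DMWD had 160 UMIs in thinned ETV6-RUNX1 cells and 105 in thinned LUC cells, and CYB5D2 had 211 and 97.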

Other observations

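Some genes of the same lists lay below 10 CPM and are outside the counts given for those lists; the ones named here were chosen after their values were seen. KMO, an enzyme of the kynurenine route that leads to quinolinate, the QPRT substrate, had 27 UMIs in ETV6-RUNX1 cells and 7 in LUC cells (log2 ratio 1.91, 0.67 to 3.35), while IDO1, TDO2, KYNU and HAAO of that route had 0 UMIs in both libraries. ATP1B1, a beta subunit of the sodium pump, had 29 UMIs in ETV6-RUNX1 cells and 9 in LUC cells (1.65, 0.53 to 2.91). The cholesterol exporter ABCA1 was at 5.89 CPM in ETV6-RUNX1 cells and 4.23 CPM in LUC cells (0.48, 0.20 to 0.76). NAMPT, of NAD salvage, was at 5.92 CPM in ETV6-RUNX1 cells and 7.79 CPM in LUC cells (-0.40, -0.64 to -0.16), and NR1H3, a sterol-sensing nuclear receptor, was lower as well (-0.54, -0.89 to -0.19).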
